A study of Mus musculus with 16 samples.

Results

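Neutrophil granule and secreted genes were followed in cells sorted from the olfactory mucosa of mice, the lining of the nose that holds the odour-sensing neurons. The group holds 10 genes: Lcn2, Ngp, Retnlg, Chil3, S100a8, S100a9, Mmp8, Ltf, Camp and Elane. They are 10 of the 19505 genes that the array names by 1 symbol, and each was read from the probe set annotated with that symbol. They were chosen by their log2 difference between the sort fractions on these arrays, so that difference is given as a description without a test.

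The mice were C57BL/6 animals of both sexes, 7 to 12 weeks old, of the S100a5-tauGFP line, in which a tau-linked green fluorescent protein (GFP) reports S100a5, a gene that olfactory sensory neurons transcribe according to their activity. Each spent 40 h alone in a chamber flushed with clean air at 3.1 L/min and, from 26 h on, received 10 s pulses of undecanal, an aldehyde odorant, or of filtered air as vehicle every 20 min. The mucosa was dissociated and sorted by fluorescence, and RNA from pools of 3 mice was hybridised to Clariom S arrays, 1 array per fraction. The groups are undecanal arrays titled GFP+, vehicle arrays titled GFP+, undecanal arrays titled GFP- and vehicle arrays titled GFP-, with 4 arrays each. For each of the 16 samples the title names one GFP sign and the cell type label the other, so a fraction is named here by its title. S100a5 was lower in the fraction titled GFP+ in 8 of 8 pools (-0.97 on the log2 scale with undecanal and -0.91 with vehicle, limma adjusted p = 3.94e-04 and 7.15e-04), so no statement below takes either fraction as the one that held the fluorescent neurons. Omp, the olfactory marker protein of mature neurons, averaged 18.80 and 18.85 in the undecanal arrays titled GFP+ and GFP-, and 18.83 in both vehicle groups. Because the arrays measured mixtures of cells, fewer cells of a type and less RNA per cell cannot be told apart.

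Neutrophils are short-lived leukocytes that mature in the bone marrow and load their granules in sequence. Azurophil granules are filled first, at the promyelocyte stage, with serine proteases such as neutrophil elastase and with myeloperoxidase. Specific granules follow with lactoferrin, cathelicidin and lipocalin, and gelatinase granules with matrix metalloproteinase 9. The mRNA of most granule proteins is made in the immature cells and declines before release into blood, whereas the calprotectin subunits S100a8 and S100a9 are abundant in the cytosol of mature cells. Transcription factors of the C/EBP family and the ETS factor PU.1, encoded by Spi1, drive genes of this kind in developing granulocytes.

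The promoters of the 10 genes were set beside each other and searched for motifs of these factors. Whether the factors act on each of the 10 genes was not tested. All 10 were found in the RefSeq promoter table (GRCm38.p6), 4 of them on chromosome 9 (Ngp, Mmp8, Ltf and Camp) and 3 on chromosome 3 (Chil3, S100a8 and S100a9). The 250 bases before each start site were searched on both strands for a C/EBP-type motif, TTNNGNAA (TTNCNNAA on the other strand), and an ETS-type motif, AGGAAGT. The C/EBP-type motif was present in 8 of 10 promoters (80.0%), against 52.9% of 51 promoters of other neutrophil genes and 36.8% of all 32851 promoters in the table. The ETS-type motif was present in 4 of 10 (40.0%), against 25.5% of the other neutrophil genes and 7.69% of all promoters. No match of either motif overlapped another. Promoters of 5 genes are printed below in the direction of transcription, with matches of the C/EBP-type motif in capitals. Ngp (chr9:110419558-110419807, plus strand) and Chil3 (chr3:106167565-106167814, minus strand) are shown because each held 3 matches, Ltf (chr9:111019042-111019291, plus strand) because a match of its 2 shares its letters with one in Ngp, S100a8 (chr3:90668821-90669070, plus strand) as a cytosolic gene with 1 match, and Elane (chr10:79886062-79886311, plus strand) as the azurophil gene with none.
Ngp: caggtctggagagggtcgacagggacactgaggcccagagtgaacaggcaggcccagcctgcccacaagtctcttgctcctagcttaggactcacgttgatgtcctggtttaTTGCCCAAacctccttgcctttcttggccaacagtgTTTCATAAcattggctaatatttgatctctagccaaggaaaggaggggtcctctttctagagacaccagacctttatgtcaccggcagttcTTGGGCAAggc
Chil3: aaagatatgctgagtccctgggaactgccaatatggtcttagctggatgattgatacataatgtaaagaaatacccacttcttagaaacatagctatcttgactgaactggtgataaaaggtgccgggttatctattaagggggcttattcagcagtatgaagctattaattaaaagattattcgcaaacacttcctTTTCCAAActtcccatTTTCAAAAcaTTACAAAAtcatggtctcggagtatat
Ltf: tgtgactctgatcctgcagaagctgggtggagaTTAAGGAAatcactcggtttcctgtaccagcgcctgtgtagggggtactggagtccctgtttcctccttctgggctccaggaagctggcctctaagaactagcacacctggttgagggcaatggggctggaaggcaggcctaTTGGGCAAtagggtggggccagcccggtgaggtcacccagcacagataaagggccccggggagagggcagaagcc
S100a8: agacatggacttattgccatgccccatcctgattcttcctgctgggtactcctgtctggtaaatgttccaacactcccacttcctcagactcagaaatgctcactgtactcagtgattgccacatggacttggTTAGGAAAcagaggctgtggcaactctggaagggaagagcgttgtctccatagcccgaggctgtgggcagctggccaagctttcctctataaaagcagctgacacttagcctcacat
Elane: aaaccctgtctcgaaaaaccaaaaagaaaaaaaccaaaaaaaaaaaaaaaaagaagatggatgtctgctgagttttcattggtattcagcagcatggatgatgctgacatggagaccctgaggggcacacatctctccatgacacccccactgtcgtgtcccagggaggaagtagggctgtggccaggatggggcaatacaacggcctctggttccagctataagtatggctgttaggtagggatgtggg
In Ngp the matches lay at -138, -102 and -11 relative to the start site, and the one at -11, TTGGGCAA, was also found at -75 in Ltf. The 3 matches of Chil3 began at -53, -37 and -27, next to an ETS-type match that began at -60. Elane and Camp held no C/EBP-type match in this window, and Elane held an ETS-type match that began at -84. A match is a string of letters and not a measured binding site.

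Values are log2 signals as the submitters summarised them. A background level of 4.802 was set from 356 probe sets for vomeronasal and bitter taste receptors, as the 95th percentile of their group means. A gene described as below background in all groups had every group mean below this level, although single arrays could lie above it. Over the 10 genes, the 80 values in the arrays titled GFP+ ran between 9.04 and 17.59, and the 80 values in the arrays titled GFP- ran between 3.46 and 7.01, of which 40 lay below background. The groups of the 2 fractions did not overlap for 10 of 10 genes with undecanal or with vehicle, which was the reading by which the genes were proposed. Over all 22206 probe sets, 9.43% in undecanal pools and 9.83% in vehicle pools were higher in titled GFP+ without overlap. Replicate 4 stood low in both titled GFP+ groups for nearly all of these genes, and values without both pools numbered 4 are given where they bear on a result. That alternative was chosen after the data were seen.

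**Figure D1:**
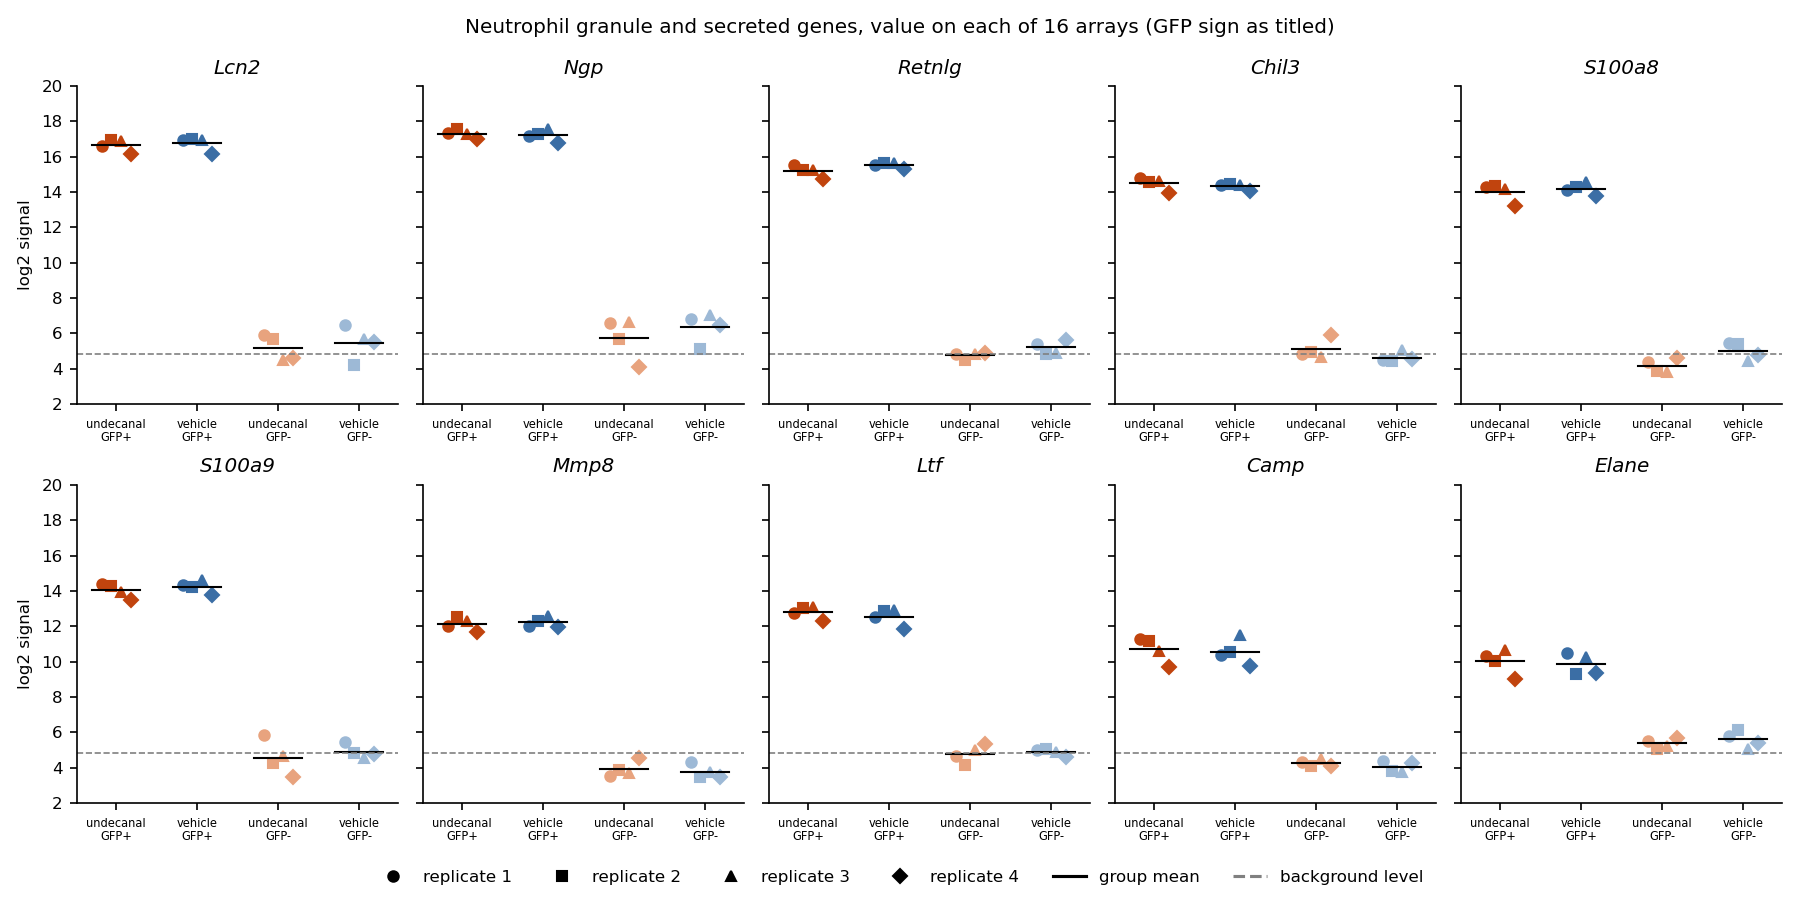
Log2 signal of each of the 10 genes on each of the 16 arrays, in 4 groups of 4, with replicates as symbols, group means as black bars and the background level of 4.802 as a dashed line. All arrays titled GFP+ lie at or above 9.04 and all arrays titled GFP- at or below 7.01. Levels are comparable between groups within a panel and not between panels, since each gene has its own probes.

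Among specific granule proteins, Ngp encodes neutrophilic granule protein, a cystatin-like protein of murine neutrophils. It read 17.32, 17.54, 17.28 and 17.01 in undecanal arrays titled GFP+ (replicates 1 to 4), and 6.56, 5.67, 6.64 and 4.07 in undecanal arrays titled GFP-. In vehicle arrays it read 17.19, 17.26, 17.59 and 16.79 in titled GFP+, and 6.83, 5.10, 7.01 and 6.45 in titled GFP-. The titled GFP+ values were tightly grouped under either agent, and the widest spread was among the undecanal arrays titled GFP-, where replicate 4 fell below background. The within-pool difference, titled GFP+ minus titled GFP-, averaged 11.55 ± 1.08 log2 units with undecanal and 10.86 ± 0.87 with vehicle (SD, n = 4 pools each). With the array below background set at that level, the fold was at least 2647.7 with undecanal, and it was 1859.5 with vehicle, where no array was below.

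Lcn2 encodes lipocalin 2, which binds bacterial iron carriers and is also made by epithelia and glands. It read 16.63, 16.92, 16.87 and 16.17 in undecanal arrays titled GFP+, against 5.93, 5.68, 4.48 and 4.58 in undecanal arrays titled GFP-. With vehicle the readings were 16.93, 17.01, 16.97 and 16.14 in titled GFP+, against 6.48, 4.18, 5.67 and 5.48 in titled GFP-. Replicate 4 was the lowest titled GFP+ array under both agents, and 2 undecanal and 1 vehicle array titled GFP- were below background. The difference between fractions averaged 11.48 ± 0.706 with undecanal and 11.31 ± 1.08 with vehicle (SD, n = 4 pools each).

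Ltf encodes lactoferrin, an iron-binding protein of specific granules and of glandular secretions. Its values were 12.74, 13.01, 13.11 and 12.30 in undecanal arrays titled GFP+, against 4.67, 4.13, 4.99 and 5.33 in undecanal arrays titled GFP-. In vehicle arrays they were 12.50, 12.84, 12.93 and 11.87 in titled GFP+, against 4.97, 5.07, 4.90 and 4.59 in titled GFP-. All titled GFP- values lay close to the background level, 2 of 4 undecanal and 1 of 4 vehicle arrays below it. The difference was 8.01 ± 0.788 with undecanal and 7.65 ± 0.318 with vehicle (SD, n = 4 pools each). With arrays below background set at that level, Ltf was at least 224.0-fold higher in titled GFP+ with undecanal and at least 194.1-fold higher with vehicle.

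Camp, the cathelicidin antimicrobial peptide precursor, and Mmp8, neutrophil collagenase, were at background in the fraction titled GFP-. Camp read 11.28, 11.16, 10.61 and 9.70 in undecanal arrays titled GFP+, and 10.40, 10.55, 11.53 and 9.76 in vehicle arrays titled GFP+. Mmp8 read 12.03, 12.50, 12.32 and 11.69 in undecanal arrays titled GFP+, and 12.03, 12.31, 12.61 and 11.94 in vehicle arrays titled GFP+. All 16 titled GFP- values of this pair, between 3.47 and 4.55, lay below background, so only a lower bound of the difference can be given. Taking titled GFP- arrays at the background level, Camp was at least 59.1-fold higher in titled GFP+ with undecanal and at least 54.1-fold higher with vehicle. Mmp8 was at least 160.9-fold higher with undecanal and at least 171.3-fold higher with vehicle. As measured, the difference for Camp was 6.44 ± 0.708 log2 units with undecanal and 6.50 ± 0.987 with vehicle, and that for Mmp8 was 8.22 ± 0.723 with undecanal and 8.47 ± 0.532 with vehicle (SD, n = 4 pools each).

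Elane, neutrophil elastase of azurophil granules, is the 1 azurophil gene among the 10 and had the smallest difference of them. It read 10.31, 10.01, 10.67 and 9.04 in undecanal arrays titled GFP+, against 5.53, 5.07, 5.20 and 5.69 in undecanal arrays titled GFP-. The vehicle arrays gave 10.47, 9.30, 10.26 and 9.33 in titled GFP+, against 5.80, 6.14, 5.06 and 5.37 in titled GFP-. It was also the 1 gene of the 10 with no titled GFP- array below background under either agent. The difference averaged 4.64 ± 0.904 with undecanal, or 24.9-fold, and 4.25 ± 0.888 with vehicle, or 19.0-fold (SD, n = 4 pools each). The lowest single pool, vehicle pool 2, gave 3.16.

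S100a8 and S100a9 encode the subunits of calprotectin, a calcium- and zinc-binding heterodimer. S100a8 read 14.29, 14.32, 14.15 and 13.20 in undecanal arrays titled GFP+, against 4.37, 3.86, 3.83 and 4.59 in undecanal arrays titled GFP-. Vehicle arrays read 14.13, 14.29, 14.55 and 13.78 in titled GFP+, against 5.45, 5.41, 4.41 and 4.76 in titled GFP-. With undecanal all titled GFP- arrays were below background and S100a8 was at least 584.0-fold higher in titled GFP+, and with vehicle 2 arrays were below background and the difference was 9.18 ± 0.651 log2 units (SD, n = 4 pools). S100a9 read 14.41, 14.27, 13.97 and 13.51 in undecanal arrays titled GFP+, against 5.82, 4.28, 4.67 and 3.46 in undecanal arrays titled GFP-. In vehicle arrays it read 14.34, 14.22, 14.60 and 13.80 in titled GFP+, against 5.46, 4.84, 4.53 and 4.79 in titled GFP-. Its difference was 9.48 ± 0.686 with undecanal and 9.33 ± 0.538 with vehicle (SD, n = 4 pools each), and 3 undecanal and 2 vehicle arrays titled GFP- were below background. As measured, the difference of S100a8 with undecanal was 9.83 ± 0.839 (SD, n = 4 pools). The measured differences of the subunits were of similar size under either agent, but both rest partly on titled GFP- values below background.

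Retnlg encodes resistin-like gamma, a secreted protein that rodent neutrophils make, and Chil3 encodes the chitinase-like protein Ym1, which neutrophils and alternatively activated macrophages secrete. Retnlg read 15.52, 15.22, 15.27 and 14.76 in undecanal arrays titled GFP+, against 4.80, 4.51, 4.82 and 4.91 in undecanal arrays titled GFP-. With vehicle the readings were 15.52, 15.64, 15.64 and 15.29 in titled GFP+, against 5.42, 4.85, 4.88 and 5.63 in titled GFP-. Below background were 2 undecanal arrays titled GFP- and no vehicle array. The difference was 10.43 ± 0.407 with undecanal and 10.33 ± 0.55 with vehicle (SD, n = 4 pools each). Chil3 read 14.79, 14.57, 14.62 and 13.97 in undecanal arrays titled GFP+, against 4.85, 4.94, 4.64 and 5.93 in undecanal arrays titled GFP-. The vehicle arrays gave 14.39, 14.45, 14.42 and 14.07 in titled GFP+, against 4.51, 4.42, 5.04 and 4.54 in titled GFP-. In undecanal pool 4 the titled GFP+ value was the lowest of its group and the titled GFP- value the highest, so that pool differed least. Below background were 1 undecanal and 3 vehicle arrays titled GFP-. The difference of Chil3 averaged 9.40 ± 0.918 with undecanal and 9.71 ± 0.301 with vehicle (SD, n = 4 pools each). Chil3 has the near-identical neighbour Chil4, and signal shared between their probes was not tested.

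Over the 10 genes the median difference was 9.44 with undecanal and 9.26 with vehicle, against -0.11 over all probe sets with either agent. Without both pools numbered 4 the medians were 9.57 with undecanal and 9.34 with vehicle. The order of the differences, with Lcn2 and Ngp first, then Retnlg, and Camp before Elane last, held under both agents, while Lcn2 and Ngp differed from each other by less than their SDs. All of the 10 but Elane had titled GFP- arrays below background under at least 1 agent, so their places in this order rest partly on such values. Among the promoters searched, Ngp and Chil3 held 3 C/EBP-type matches each, and S100a9, Mmp8 and Ltf held 2 each. Lcn2, Retnlg and S100a8 held 1 each, and Camp and Elane held none. A relation between the number of matches and the difference was not tested.

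**Figure D2:**
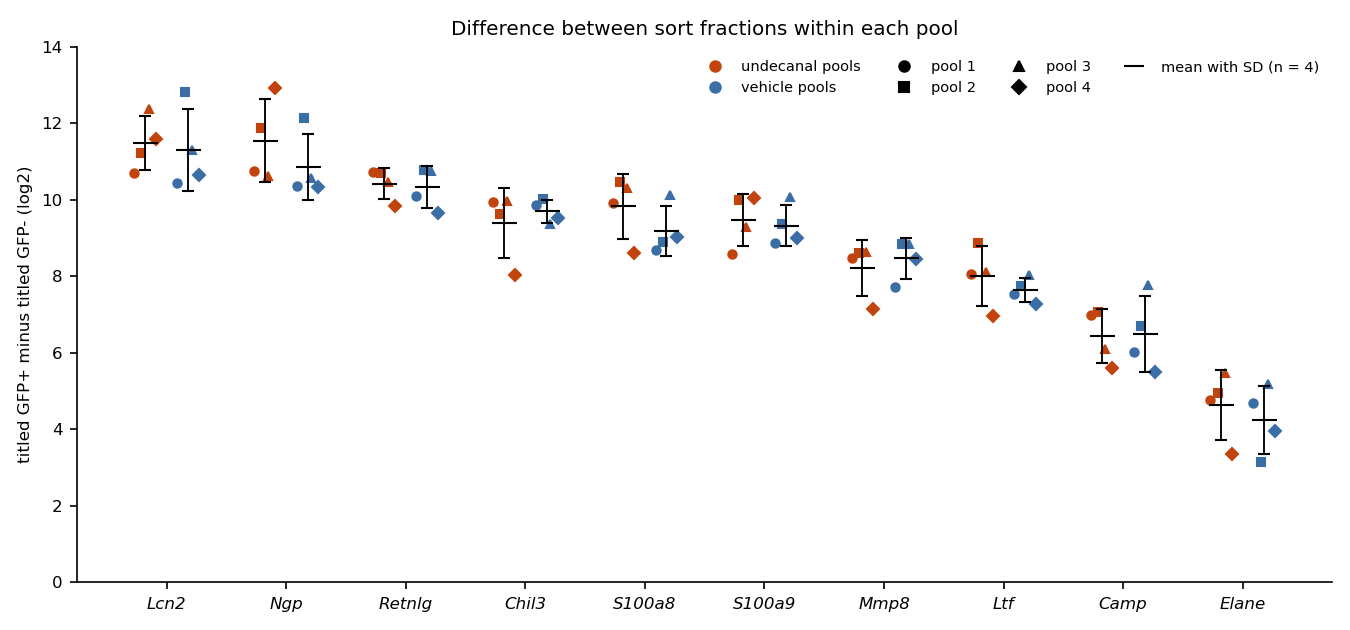
Difference in log2 signal between the fractions titled GFP+ and GFP- of each pool, for undecanal pools (left of each pair) and vehicle pools, with mean and SD over 4 pools. The single pools lie between 3.16 (Elane, vehicle pool 2) and 12.94 (Ngp, undecanal pool 4). Where titled GFP- arrays are below background the plotted difference depends on that floor.

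The next question was whether undecanal changed these genes within a fraction, a comparison by which they were not proposed. In the arrays titled GFP+ 0 of the 10 genes passed the test (limma, Benjamini-Hochberg over all probe sets, threshold 0.05), as did 1 of 22206 probe sets (0.0045%). At an unadjusted p under 0.05 the counts were 0 of 10 and 603 of 22206 (2.72%). The 10 effects, undecanal minus vehicle, had a median of -0.01 on the log2 scale, against 0.01 over all probe sets, and 5 were positive and 5 negative.

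The most negative of the 10 was Retnlg, at -0.33 (95% confidence interval -0.74 to 0.08, limma unadjusted p = 0.108, adjusted p = 0.999). It averaged 15.19 ± 0.316 in undecanal arrays and 15.52 ± 0.167 in vehicle arrays titled GFP+ (SD, n = 4 each), and the groups overlapped. The undecanal array was below the same-numbered vehicle array at 4 of 4 numbers, although both round to 15.52 at number 1. The most positive was Ltf, at 0.25 (95% confidence interval -0.30 to 0.81, limma adjusted p = 0.999), with the undecanal array above the same-numbered vehicle array at 4 of 4 numbers. Numbers do not pair mice across agents, so both tallies are descriptions. Ngp had the widest interval, from -0.90 to 1.05. The other intervals also spanned 0, so an effect of a size within each gene's interval cannot be told from none in this model. The model takes 1 spread per gene from all 4 groups, so the intervals in titled GFP+ also carry the spread of the titled GFP- arrays, many of them near background. Undecanal and vehicle groups overlapped for 10 of 10 genes, while 1.87% of all probe sets had groups free of overlap.

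In the arrays titled GFP- 0 of 10 genes passed, as did 0 of 22206 probe sets (0%), and at an unadjusted p under 0.05 the counts were 2 of 10 and 914 of 22206 (4.12%). S100a8 averaged 4.16 ± 0.376 in undecanal arrays and 5.01 ± 0.505 in vehicle arrays (SD, n = 4 each). Its effect was -0.84 (SE 0.281, limma unadjusted p = 0.00805, adjusted p = 1), lower with undecanal at 4 of 4 numbers, and -1.07 without both pools numbered 4 (limma adjusted p = 0.83). All 4 undecanal values and 2 of 4 vehicle values of S100a8 lay below background, so this difference is between signals near the floor. Retnlg, the other gene with a small unadjusted p, averaged 4.76 ± 0.173 in undecanal arrays and 5.19 ± 0.392 in vehicle arrays, an effect of -0.43 (95% confidence interval -0.85 to -0.02, limma unadjusted p = 0.0391, adjusted p = 1), lower with undecanal at 4 of 4 numbers and with its undecanal mean below background. The median over the 10 genes was -0.25, against 0.00 over all probe sets, and 7 of 10 effects were negative. Groups overlapped for all 10 genes, and 2.2% of all probe sets had groups free of overlap.

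Whether the fractions differed more under one agent was tested as an interaction. None of the 10 genes passed (limma, 0 of 10 and 0 of 22206 probe sets, or 0%), and at an unadjusted p under 0.05 the counts were 0 of 10 and 584 of 22206 (2.63%). The interaction ran between -0.31 for Chil3 and 0.69 for Ngp, whose 95% confidence interval was -0.68 to 2.07. Chil3 turned to 0.08 without both pools numbered 4, where its limma adjusted p was 1. For Ngp, undecanal replicate 4 titled GFP- read 4.07, below background. Over replicates 1 to 3 Ngp averaged 17.38 with undecanal and 17.35 with vehicle in titled GFP+, and 6.29 and 6.31 in titled GFP-. Its interaction thus rests mainly on the pools numbered 4.

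**Figure D3:**
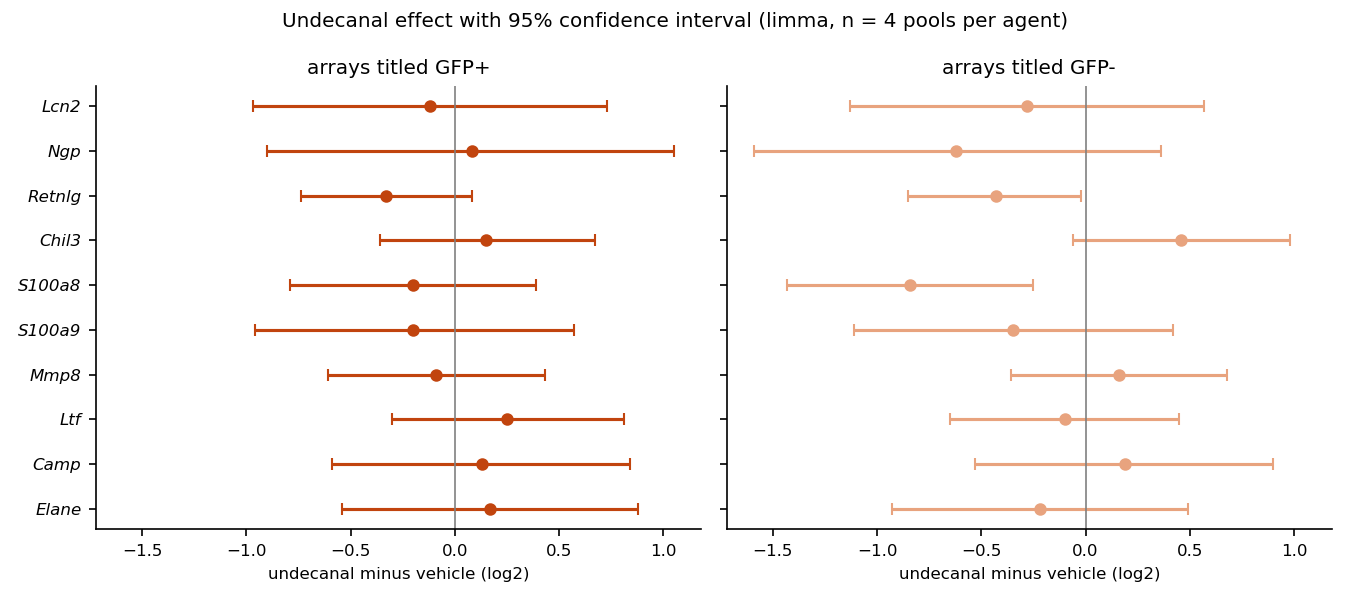
Undecanal minus vehicle on the log2 scale for each gene in the arrays titled GFP+ (left) and titled GFP- (right), with 95% confidence intervals from the model over all 16 arrays. The intervals in titled GFP+ all include 0, and in titled GFP- those of S100a8 and Retnlg lie below 0 before adjustment.

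Spread within the titled GFP+ groups was shared by the genes. Replicate 4 was the lowest array for 10 of 10 genes with undecanal and for 9 of 10 with vehicle, where Elane was lowest in replicate 2, at 9.30 against 9.33 in replicate 4. For 9 of 10 genes replicate 4 was lowest under both agents, and 5.63% of all probe sets showed this. The mean over the 10 genes was 13.93, 13.95, 13.89 and 13.14 in undecanal arrays titled GFP+, and 13.79, 13.79, 14.11 and 13.28 in vehicle arrays titled GFP+. In the arrays titled GFP- the same mean was 5.04, 4.61, 4.75 and 4.72 with undecanal, and 5.36, 4.73, 4.90 and 4.94 with vehicle, and replicate 4 did not stand low there.

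Undecanal replicate 4 was also the lowest titled GFP+ array of its group for 33 of 52 other neutrophil genes, 9 of 12 monocyte and macrophage markers, 6 of 9 lymphocyte markers and 6 of 13 mature neuron markers. Vehicle replicate 4 was lowest for 22, 2, 4 and 3 of them. For a single agent the share over all probe sets was not read. The single-agent counts, here and for the 10 genes, therefore do not show whether that array was low in general. Under both agents it was lowest for 16 of 52 other neutrophil genes, 1 of 12 monocyte and macrophage markers, 2 of 9 lymphocyte markers and 1 of 13 mature neuron markers. The lymphocyte mean was 6.70, 6.04, 5.24 and 4.84 in undecanal arrays titled GFP+ and 6.28, 6.25, 5.42 and 5.16 in vehicle arrays titled GFP+, so replicates 1 and 2 were higher than 3 and 4 under both agents, a split that the 10 genes did not show. What the same-numbered pools of the agents shared is not given in the labels, and its part in the low replicate 4 was not tested.

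**Figure D4:**
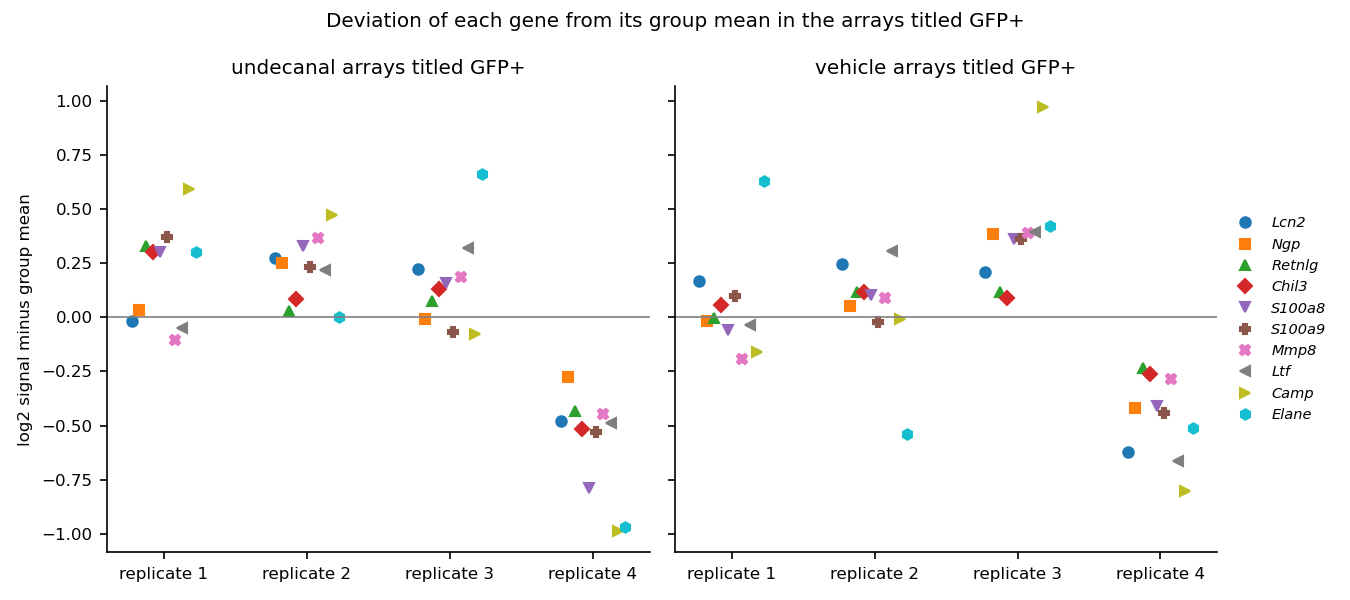
Log2 signal of each of the 10 genes minus its group mean, for undecanal arrays (left) and vehicle arrays (right) titled GFP+, by replicate number. In replicate 4 all 10 genes lie below 0 in both panels. Replicate numbers are names and have no order.

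Within the 8 arrays titled GFP+, each gene was set against the mean of the other 9 as deviations from group means. Pearson r ran between 0.691 for Elane and 0.968 for S100a8, with 0.930 for S100a9, 0.911 for Camp, 0.893 for Chil3 and 0.892 for Ngp. The 95th percentile over all other genes, each set against the mean of the 10, was 0.649. The 10 highest of those other genes ran between 0.954 and 0.981, led by A730020M07Rik and Zfp438, so 9 of the 10 granule and secreted genes had a lower r than these. This view was added after the values were seen, and all points share their arrays and their scaling. Over all 16 arrays the same measure ran between 0.225 for Chil3 and 0.812 for Camp, with the titled GFP- values near background included.

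By likeness over 16 arrays, the genes whose deviations from group means were most like the mean of the 10 were Ly6c1 (r = 0.898), Spsb4 (0.853), Zfp791 (0.824), Olfr348 (0.820), Olfr1109 (0.818), Rac2 (0.813), Stoml3 (0.804), Ly6c2 (0.801), Zfp383 (0.800) and Olfr881 (0.798). The 95th percentile of r over all other genes was 0.465. Of these, Ly6c1 and Ly6c2 encode surface proteins of myeloid cells, the first also of endothelium and lymphocytes, and Rac2 is the small GTPase of the phagocyte oxidase, whereas Stoml3 is a stomatin of sensory neurons and Olfr348, Olfr1109 and Olfr881 are odorant receptors. On plain log2 values, where the difference between fractions dominates, the list was Mmp9, Ly6c2, S100a11, Mrgpra2b, Ifitm6, Ly6c1, Stil, Anxa1, Arpc1b and Samsn1, with r between 0.995 and 0.998 and a 95th percentile of 0.886. Both lists hold the 10 highest of all other genes, so their genes lie above the 95th percentile by selection. The lists are descriptions over arrays that share pools.

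The difference between the fractions was also read for 60 other genes of neutrophils in 7 lists, of which 52 were measured. The lists were chosen with earlier results known, and the arrays are those by which the granule and secreted genes were proposed. The calls are therefore a description and not an independent check of the neutrophil label. In undecanal pools 46 of 52 were higher in titled GFP+ and 0 lower, and in vehicle pools 43 of 52 were higher and 0 lower (limma adjusted p under 0.05), against 8.83% higher and 4.36% lower of all probe sets in undecanal pools and 8.82% higher and 5.12% lower in vehicle pools. The calls include Acod1 and Padi4 under both agents and Cebpe with undecanal, genes whose means lay below background in all groups. Single titled GFP+ arrays of Acod1 and Padi4 lay above it. The median difference of the 52 genes was 2.95 with undecanal and 3.01 with vehicle. Monocyte and macrophage markers were also higher, 11 of 12 with either agent, so the counts do not separate neutrophils from those cells. Centring each array on its median moved the median of all probe sets to -0.46 in undecanal pools and -0.47 in vehicle pools. It gave 1584 higher and 11129 lower of 22206 in undecanal pools, against 1960 higher and 969 lower as deposited, and 1570 higher and 11231 lower in vehicle pools, against 1959 higher and 1138 lower as deposited. Under that centring Cebpb and Gfi1 were called lower in vehicle pools.

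Of other azurophil genes 5 of 6 were higher in either agent. Mpo, myeloperoxidase, read 11.10, 11.38, 11.84 and 9.73 in undecanal arrays titled GFP+, against 5.95, 4.65, 5.15 and 4.89 in undecanal arrays titled GFP-. Vehicle arrays read 11.78, 11.00, 11.39 and 10.70 in titled GFP+, against 5.74, 5.22, 4.92 and 4.32 in titled GFP-. As with Elane, the titled GFP+ arrays were clear of the titled GFP- arrays in every pool. The differences were 5.85 (SE 0.401, limma adjusted p = 5.56e-09) with undecanal and 6.17 (SE 0.401, limma adjusted p = 2.68e-09) with vehicle. Ctsc, the cathepsin that activates granule serine proteases, differed by 5.93 with undecanal and 5.80 with vehicle, and Ctsg, cathepsin G, by 1.73 with undecanal and 2.18 with vehicle. Prss57 did not pass and was below background in all groups.

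All 6 other specific granule genes were higher with either agent. With undecanal Lyz2, lysozyme of myeloid cells, differed by 8.74, Hp, haptoglobin, by 7.37, and Cd177, a neutrophil surface and granule glycoprotein, by 5.59. With vehicle they differed by 8.62, 6.97 and 4.79. Of the gelatinase and secretory genes 5 of 6 were higher with undecanal and 4 of 6 with vehicle. Mmp9, gelatinase B, differed by 7.61 (SE 0.241, limma adjusted p = 5.02e-13) with undecanal and 7.65 (SE 0.241, limma adjusted p = 4.53e-13) with vehicle. Cfp, properdin, and Mmp25, a membrane metalloproteinase, differed by 2.22 and 2.32 with undecanal and by 1.79 and 1.75 with vehicle. Alpl, a phosphatase of secretory vesicles, did not pass and was below background in all groups.

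Surface receptors were higher for 8 of 8 measured genes with either agent. The integrin subunits Itgam and Itgb2 differed by 6.20 and 5.28 with undecanal and by 6.35 and 5.91 with vehicle. Csf3r, the receptor for granulocyte colony-stimulating factor, differed by 4.36 (SE 0.376, limma adjusted p = 1.09e-07) with undecanal and 5.13 (SE 0.376, limma adjusted p = 1.32e-08) with vehicle. Cytokine and stefin genes were higher for 12 of 14 with either agent, among them the interleukin gene Il1b (5.93 with undecanal and 6.64 with vehicle), the chemokine gene Ccl3 (5.65 with undecanal and 6.32 with vehicle) and the stefin gene Stfa2l1 (4.54 with undecanal and 5.09 with vehicle). The stefins Stfa1 and Stfa3 did not pass, and stefin genes are close copies whose probes may share signal. The oxidase and extracellular trap genes were higher for 6 of 6, among them Rac2 (6.24 with undecanal and 7.29 with vehicle) and the oxidase subunits Cybb (6.70 with undecanal and 6.53 with vehicle) and Ncf1 (6.63 with undecanal and 5.89 with vehicle). Among these calls were Padi4, the trap gene of that list, and Acod1 of the cytokine and stefin list, both with means below background in all groups. Many genes of the neutrophil lists, Lyz2, Itgam, Itgb2, Cybb and Rac2 among them, are expressed by monocytes and macrophages too. As for Camp and Mmp8, every titled GFP- array was below background for Ctsg, Mmp9, Mmp25, Itgam, Itgb2, Csf3r, Stfa2l1 and Rac2, so the signals give lower bounds of the fold. Mmp9 was at least 125.7-fold higher in titled GFP+ with undecanal and at least 123.4-fold higher with vehicle, and Itgam at least 53.0-fold with undecanal and at least 47.1-fold with vehicle. Rac2 was at least 45.2-fold higher with undecanal and at least 58.0-fold with vehicle. Ctsg was bounded at only 1.56-fold with undecanal and 1.61-fold with vehicle. For Hp and Cd177 this held with undecanal, at least 97.0-fold and at least 26.1-fold.

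The factors of granulocyte development differed among themselves. Spi1, encoding PU.1, was higher by 7.89 with undecanal and 8.31 with vehicle (SE 0.315, limma adjusted p = 6.89e-12 and 3.76e-12), and Cebpd, a C/EBP factor, by 1.99 with undecanal and 2.32 with vehicle. Cebpe, the C/EBP factor needed for specific granules, was below background in all groups. It averaged 4.19 in undecanal arrays titled GFP+ and 2.93 in undecanal arrays titled GFP-, a difference of 1.26 (limma adjusted p = 8.35e-05), and 3.56 and 3.10 in the vehicle arrays titled GFP+ and GFP-, where the test was not passed (limma adjusted p = 0.123). The list had 4 of 6 genes higher with undecanal and 2 of 6 with vehicle, and Cebpb and Gfi1 passed in neither. The interaction was not passed by any of the 6.

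Undecanal effects on the 52 genes gave 0 calls in either fraction and 0 in the interaction (limma), with 3, 3 and 4 genes at an unadjusted p under 0.05 in titled GFP+, titled GFP- and the interaction. In titled GFP+ the smallest were Cebpe (0.63, limma unadjusted p = 0.0037), Stfa2l1 (-0.47, limma unadjusted p = 0.0285) and Stfa2 (-0.52, limma unadjusted p = 0.0323), each with limma adjusted p = 0.999. In titled GFP- they were Cd177 (-0.63, limma unadjusted p = 0.00953), Cebpd (0.44, limma unadjusted p = 0.0234) and Fcnb (-0.62, limma unadjusted p = 0.0468), with limma adjusted p = 1. Both titled GFP- means of Cd177 (3.92 with undecanal and 4.55 with vehicle) and of Fcnb (4.17 with undecanal and 4.79 with vehicle) lay below background. Fcnb encodes ficolin B, a lectin of immature granulocytes. In the interaction the smallest were Cebpe (0.80, limma unadjusted p = 0.00803), Fcnb (1.19, limma unadjusted p = 0.00972) and Wfdc17 (-0.99, limma unadjusted p = 0.011), with limma adjusted p = 1.

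Markers of other cells also differed between the fractions, and their part in the values of the 10 genes was not tested. Of 12 monocyte and macrophage markers 11 were higher in titled GFP+ with either agent, led by Ly6c2 (8.62 with undecanal and 8.33 with vehicle), the chemokine receptor Ccr2 (4.57 with undecanal and 4.70 with vehicle) and the growth factor receptor Csf1r (3.49 with undecanal and 3.39 with vehicle), and Cd163 was below background in all groups. Ly6c2 and Ccr2 were below background on every titled GFP- array, and Ly6c2 was at least 193.2-fold higher in titled GFP+ with undecanal and at least 204.2-fold higher with vehicle. Their mean per array ran between 6.32 and 7.22 in undecanal and 6.44 and 6.92 in vehicle arrays titled GFP+, against 4.12 to 4.38 in undecanal and 4.14 to 4.52 in vehicle arrays titled GFP-. Of 9 lymphocyte markers 7 were higher with undecanal and 6 with vehicle, among them the B cell receptor chain Cd79b (3.06 with undecanal and 3.41 with vehicle) and the T cell receptor chain Cd3e (1.58 with undecanal and 1.87 with vehicle), and Cd3g and Ncr1 were below background in all groups. All 9 lymphocyte markers had titled GFP- means below background under both agents. With arrays below background set at that level, Cd79b was at least 6.41-fold higher in titled GFP+ with undecanal and at least 6.81-fold with vehicle, and Cd3e at least 1.94-fold with undecanal and at least 2.40-fold with vehicle. Cd79a was higher by 3.95 with vehicle, and by 3.42 without vehicle replicate 2, where the test was not passed (limma adjusted p = 0.0643). Lymphocyte means ran between 4.84 and 6.70 in undecanal and 5.16 and 6.28 in vehicle arrays titled GFP+, against 3.70 to 3.97 in undecanal and 3.82 to 4.16 in vehicle arrays titled GFP-. Both erythroid genes, Alas2 and Slc4a1, were higher (2.64 and 2.93 with undecanal, 2.49 and 3.11 with vehicle), with means of 8.52 to 10.35 in undecanal and 8.91 to 9.82 in vehicle arrays titled GFP+, against 6.03 to 6.81 in undecanal and 6.42 to 6.98 in vehicle arrays titled GFP-.

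Of 6 markers of mast cells, basophils and eosinophils 3 were higher with undecanal and 4 with vehicle, led by the mast cell carboxypeptidase Cpa3 (1.61 with undecanal and 1.76 with vehicle), while Epx, Mcpt8, Ms4a2 and Siglecf were below background in all groups. The calls include Mcpt8 and Siglecf under both agents, so 2 of 3 calls with undecanal and 2 of 4 with vehicle are between signals below background. Their mean was 4.30 to 4.79 with undecanal and 4.68 to 4.86 with vehicle in titled GFP+, against 3.85 to 4.17 with undecanal and 3.55 to 4.04 with vehicle in titled GFP-. Since Lcn2 and Ltf are also glandular, 7 gland and airway genes were read, of which 3 were higher with either agent. They were Sox9, a factor of gland and duct cells (4.15 with undecanal and 3.82 with vehicle), Bpifa1, a secreted airway protein (2.20 with undecanal and 2.11 with vehicle), and the water channel Aqp5 (0.96 with undecanal and 0.93 with vehicle). In vehicle pools Aqp5 did not pass without replicate 2 (0.86, limma adjusted p = 0.0712) or replicate 4 (0.69, limma adjusted p = 0.0618). Bpifb1, Muc5b and Scgb1a1 were below background in all groups, and the list mean was 5.27 to 5.89 with undecanal and 5.56 to 6.14 with vehicle in titled GFP+, against 4.35 to 4.69 with undecanal and 4.52 to 4.98 with vehicle in titled GFP-. Of 6 epithelial defence genes 1 was higher, Reg3g (0.77 with undecanal and 0.69 with vehicle), and under median centring or quantile normalization none was. In vehicle pools Reg3g did not pass with any 1 of the 4 vehicle pools left out (0.53 to 0.80, limma adjusted p = 0.0586 to 0.214). Saa1, Saa3, Pigr and Muc5ac of that list were below background in all groups, and its mean was 4.19 to 4.40 with undecanal and 4.03 to 4.42 with vehicle in titled GFP+, against 3.90 to 4.41 with undecanal and 3.74 to 4.36 with vehicle in titled GFP-.

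Sustentacular cells, the supporting cells of the olfactory epithelium, had 4 of 6 markers higher with either agent, among them the cytochromes Cyp1a2 (2.15 with undecanal and 2.72 with vehicle) and Cyp2a5 (2.23 with undecanal and 2.41 with vehicle) and the sulfotransferase Sult1c1 (2.78 with undecanal and 2.52 with vehicle). Their mean was 10.88 to 11.80 with undecanal and 10.59 to 11.67 with vehicle in titled GFP+, against 9.14 to 10.04 with undecanal and 8.43 to 10.07 with vehicle in titled GFP-. Of 13 mature neuron markers 0 were higher and 1, the channel gene Ano2, was lower with either agent (-0.42 with undecanal and -0.51 with vehicle), while with arrays centred on their medians 13 of 13 were lower. The neuron mean was 16.05 to 16.22 with undecanal and 16.10 to 16.15 with vehicle in titled GFP+, against 16.21 to 16.44 with undecanal and 16.28 to 16.40 with vehicle in titled GFP-.

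**Figure D5:**
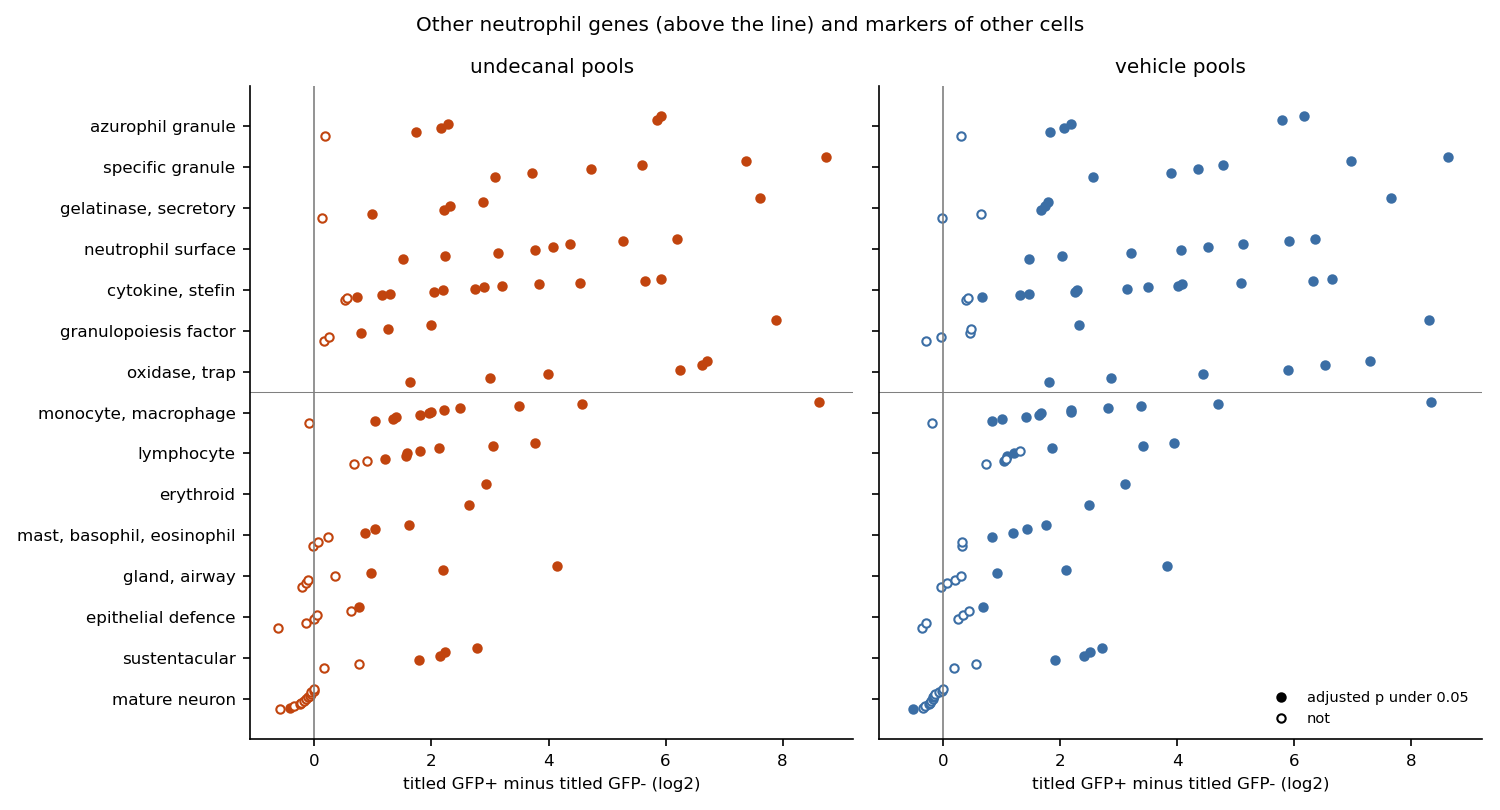
Difference between the fractions titled GFP+ and GFP- on the log2 scale for 52 other neutrophil genes in 7 lists (above the horizontal line) and 61 markers of other cells (below it), in undecanal pools (left) and vehicle pools (right). Filled points passed at an adjusted p under 0.05 (limma). The points of the neutrophil lists reach 8.74, and those of mature neuron markers reach 0.00 after rounding. In undecanal pools 1 of 13 mature neuron markers lay above 0 before rounding.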

How the data were processed

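Per the submitters' processing notes the authors used Affymetrix Expression Console, and the deposited values are log2 signals per probe set. Which summary algorithm, software version and annotation they used is not given in the sources used here. Rows numbered 28846; without 6640 control rows, 22206 probe sets entered the tests, 19572 of them with 1 gene. Where a gene had several rows, the one with the highest mean was used, and each gene listed here had 1. There were 0 columns outside the 16 samples. For arrays, their number limits the precision. The p-values measure the spread between arrays of a group, each from another pool, and leave out the pairing of fractions within a pool. The SDs printed beside differences between fractions are of within-pool differences, which is another spread.

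One limma 3.58.1 model of 4 group means (lmFit and eBayes, R 4.3.3) was fitted to all probe sets without a block, with Benjamini-Hochberg adjustment over 22206 and a threshold of 0.05. The contrasts were undecanal minus vehicle in each titled fraction, titled GFP+ minus titled GFP- under each agent, and their interaction. The script was checked on simulated data. Bounds replace values below background by the background level.

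Named were all 10 genes, S100a5 and Omp, up to 3 genes per other list and direction that passed in vehicle pools by size, the 3 smallest p among neutrophil lists for each undecanal effect, and the 10 most alike by each of 2 likeness measures over 16 arrays. Other names (A730020M07Rik, Zfp438, Prss57, Alpl, Acod1, Padi4, Stfa1, Stfa3, Cebpb, Gfi1, markers below background) complete a count and were chosen after their values were seen. The 10 genes and all lists were chosen with earlier results of these data known. Genes of the lists that the platform annotation did not name were not analysed here.

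Since 24 mice in threes give 8 pools, both fractions of 1 number and agent were taken to come from the same mice. Correlations of their deviations from group means lay between 0.050 and 0.271 and exceeded 0.1 in 6 of 8 pools. Alternatives covered scaling, a filter on dim probe sets, the prior, array weights, the pool or number as a block, leaving out pools and the background level.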

Additional observations from a re-analysis of the deposited data

Results flagged for a closer look

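A single array lay far from the others of its group for 3 of the 40 groups that the 10 genes make, by a test on the gap between the extreme array and its neighbour divided by the range of the 4 arrays (Dixon's test at the 95% level). Chance flags about 1 in 20 groups. All 3 were the lowest array, replicate 4, of a titled GFP+ group. S100a8 read 13.20 in undecanal replicate 4, against 14.15 to 14.32 in the other arrays of its group, with a gap of 0.843 of the range. Lcn2 read 16.14 in vehicle replicate 4, against 16.93 to 17.01 in the others, with a gap of 0.906 of the range. Chil3 read 14.07 in vehicle replicate 4, against 14.39 to 14.45 in the others, with a gap of 0.846 of the range.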

How the results depend on the processing

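For the undecanal effect in titled GFP+, in titled GFP- and the interaction, 0 of the 10 genes were called under any of 18, 18 and 17 alternatives (smallest limma adjusted p 0.999, 0.83 and 1). Their values ran between -0.44 and 0.49, -1.07 and 0.61, and -0.50 and 1.12, and the sign turned under at least 1 alternative for 6, 4 and 6 genes. Calls of other neutrophil genes higher in titled GFP+ ran between 43 and 47 of 52 in undecanal pools and between 42 and 47 in vehicle pools (44 to 46 and 42 to 43 with 1 pool left out). With the pool as a replicate block they were 46 and 44, and the block changed no call of the 10 genes. Called lower in vehicle pools were 2 with median centring, against 0 as deposited. Of the 10 genes, 6 with undecanal and 3 with vehicle had a titled GFP- mean below background. At the 90th percentile the undecanal count was 3, and at the 99th percentile the counts were 10 and 9. Numbers do not pair mice across agents. Correlations between same-numbered arrays of the 2 agents lay between -0.042 and 0.291 and exceeded 0.1 for 2 pairs. They do not show that same-numbered pools were unrelated. A block on the number left 0 calls of the 10 genes. Among single markers of other cells, Prg2, Aqp5 and Reg3g lost their calls in vehicle pools under several alternatives, Cd79a lost its call without vehicle replicate 2, and Ano2 with centring on the mature neuron list (limma adjusted p = 0.0754). The cause was not tested. Each gene had 1 row, so taking the row with the lowest mean gave no other value.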
